A study of Mus musculus with 12 samples.

Results

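The basement membrane genes of the panel were Col4a1, Col4a2, Lamc1, Nid1 and Hspg2, which were taken by symbol and are 5 of the 760 genes in the table of normalized values. The study asked how diet and the CD34 surface marker divide the CD11b+ myeloid cells of the mouse mammary gland. Female FVB/N mice, 3 per diet, received either the low-fat diet 2920X from Teklad Global or the high-fat diet 58Y1 from Test Diet from 3 weeks of age for 16 weeks, and the labels name no transgene or deletion. Glands were dissociated by collagenase digestion of 1 hour followed by trypsin. Live CD45+ cells were sorted by flow cytometry into CD11b+CD34+ cells, described as myeloid progenitors, and CD11b+CD34- cells, described as monocytes and macrophages. The 12 samples formed 4 groups of 3, namely CD34- and CD34+ cells from low-fat and from high-fat glands. Same-numbered samples of a diet were taken to come from 1 mouse. P-values of the main fit rest on the spread within groups, pooled over the 4 groups, and do not pair the samples of a mouse. The population comparisons were therefore also fitted with the mouse as a block. Only these 3 animals per diet underlie all p-values.

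A basement membrane is a thin sheet of extracellular matrix beneath epithelia and endothelia and around fat and muscle cells. It is built from a network of type IV collagen and a network of laminin, which nidogen and the heparan sulfate proteoglycan perlecan join together. Col4a1 and Col4a2 encode the alpha1 and alpha2 chains that assemble into the most widespread type IV collagen molecule. Lamc1 encodes the gamma1 chain held by most laminins, Nid1 encodes nidogen 1, and Hspg2 encodes perlecan. In the mammary gland such sheets surround the ducts, the fat cells and the blood vessels.

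The type IV collagen genes lie head to head on mouse chromosome 8 and are transcribed away from each other. In the RefSeq annotation of GRCm38.p6, Col4a1 occupies chr8:11198423-11312889 on the minus strand and Col4a2 occupies chr8:11312805-11449287 on the plus strand, and the annotated genes overlap by 85 bases. Their promoter windows, 250 bases before to 50 bases after the start, share 78 bases. The starts used for these windows are chr8:11312826 for Col4a1 and chr8:11312805 for Col4a2. That of Col4a1 lies inside its annotated gene, which reaches 11312889, so the 85 bases and the windows use different ends of Col4a1. The 30 bases of chr8:11312801-11312830 that hold both window starts are shown because this arrangement is what sets the pair apart from the other members. Each is read 5′ to 3′ on its gene's own strand from RefSeq, and capitals mark the 22 bases from one start to the other.
Col4a1: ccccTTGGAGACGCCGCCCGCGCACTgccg
Col4a2: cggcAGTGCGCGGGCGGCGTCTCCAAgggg
The capitals of one are the reverse complement of the other. Promoter windows were matched for 4 members, Lamc1 having none in the table. The GC content was 74.0% for the Col4a1 window and 73.7% for the Col4a2 window, against a median of 52.7% over 32851 windows of 300 bases. The GC box GGGCGG, searched on both strands, occurred 1 time in the Col4a1 window and 3 times in that of Col4a2, and 1 of these matches lies in the shared capitals. It occurred 1 time for Nid1 and 5 times for Hspg2, and 35.7% of all windows hold it. The CCAAT box, also searched on both strands, occurred 1 time each for Col4a1, Col4a2 and Nid1 and was not found for Hspg2, with 37.4% of all windows holding it. TATAAA was found in none of the 4 windows and in 13.6% of all. No GC box overlaps a CCAAT match, and a match is a description of letters only.

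The other members are scattered. Lamc1 lies at chr1:153218922-153332786, Nid1 at chr13:13437602-13512275 and Hspg2 at chr4:137468751-137570630, all in GRCm38.p6. The panel gives a probe count per gene and no value per exon or isoform.

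Values are normalized log2 probe counts, and 1 step is a doubling. Recovered totals ranged from 78316 counts, in low-fat CD34- replicate 3, to 780070 counts in the 12 samples. A gene was tested where its linear value reached 20 in at least 3 samples, which left 594 genes including all 5 members. Col4a1 and Col4a2 reached 20 in every sample of the other 3 groups and in none of the low-fat CD34- samples, and Hspg2 reached it in 5 high-fat samples and 1 low-fat sample. Hspg2 therefore passed the filter only through its high-fat samples, while low-fat CD34+ samples alone sufficed for Col4a1 and Col4a2. Counts of members are given as description. Negative control probes were not analysed here, so the lowest counts cannot be set against a measured background. Levels are compared within a gene only, because probes differ in efficiency.

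**Figure D1:**
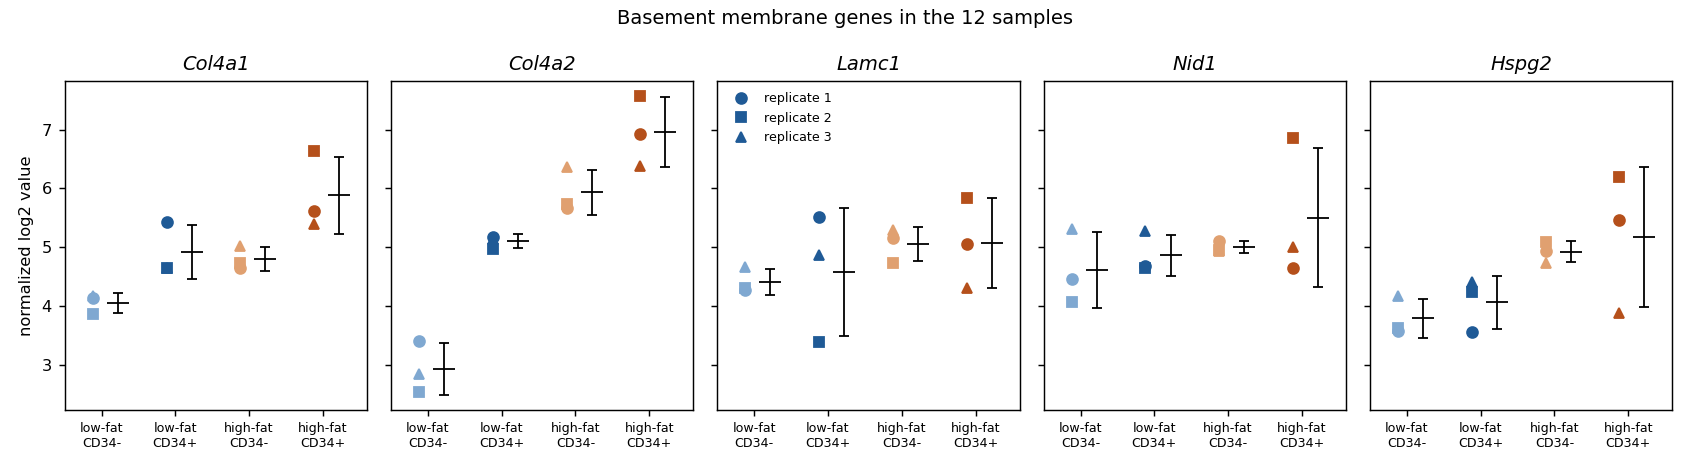
Normalized log2 value (vertical axis) of each basement membrane gene in the 12 samples, by group (horizontal axis); circles, squares and triangles are replicates 1, 2 and 3, and the bars show the group mean and SD (n = 3). Col4a2 climbs from 2.93 in low-fat CD34- cells to 6.96 in high-fat CD34+ cells, while Lamc1 and Nid1 overlap between most groups.

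Col4a2 was the member that separated the groups most clearly. Its log2 value was 3.41, 2.54 and 2.85 in replicates 1, 2 and 3 of the low-fat CD34- cells, 2.93 ± 0.44 (SD, n = 3). In low-fat CD34+ cells it was 5.18, 4.96 and 5.14, 5.10 ± 0.12 (SD, n = 3). In high-fat CD34- cells it was 5.67, 5.73 and 6.37, 5.93 ± 0.39 (SD, n = 3), and in high-fat CD34+ cells 6.92, 7.57 and 6.38, 6.96 ± 0.60 (SD, n = 3). All 4 groups were separate, in the order low-fat CD34-, low-fat CD34+, high-fat CD34-, high-fat CD34+. The gap between the lowest high-fat CD34+ sample and the highest high-fat CD34- sample was only 0.002, while the gap between the low-fat groups was 1.558. The recovered counts behind these values were small in low-fat CD34- cells, at 17, 8 and 2. The 95% Poisson interval for the 2 counts of replicate 3 was 0.2 to 7.2, and such intervals cover counting error only. High-fat CD34+ cells gave 121, 284 and 164 counts.

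Col4a1, the partner chain, followed a flatter course. It was 4.13, 3.86 and 4.17 in low-fat CD34- cells, 4.05 ± 0.17 (SD, n = 3), from 28, 20 and 5 counts. In low-fat CD34+ cells it was 5.43, 4.64 and 4.65, 4.91 ± 0.46 (SD, n = 3). In high-fat CD34- cells it was 4.64, 4.73 and 5.02, 4.80 ± 0.20 (SD, n = 3), and in high-fat CD34+ cells 5.62, 6.63 and 5.39, 5.88 ± 0.66 (SD, n = 3). The low-fat CD34- samples lay below all others, and the next 2 groups, high-fat CD34- and low-fat CD34+, overlapped and differed in mean by 0.11. The high-fat CD34+ group had the highest mean, and its lowest sample fell 0.041 inside the range of low-fat CD34+ cells, counted here as overlap.

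Hspg2, encoding the perlecan core protein, had diet groups that did not overlap in CD34- cells. It passed the filter only through its high-fat samples, and its low-fat CD34- values rested on 19, 17 and 5 counts. It was 3.57, 3.63 and 4.17 in low-fat CD34- cells, 3.79 ± 0.33 (SD, n = 3), and 3.55, 4.23 and 4.41 in low-fat CD34+ cells, 4.06 ± 0.45 (SD, n = 3). In high-fat CD34- cells it was 4.94, 5.08 and 4.73, 4.92 ± 0.18 (SD, n = 3), above every low-fat sample. The high-fat CD34+ cells were spread over 5.47, 6.20 and 3.88, 5.18 ± 1.19 (SD, n = 3), and replicate 3 lay within the low-fat range.

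Lamc1, the laminin gamma1 chain, differed little between group means. It was 4.27, 4.30 and 4.66 in low-fat CD34- cells, 4.41 ± 0.22 (SD, n = 3), and 5.15, 4.73 and 5.29 in high-fat CD34- cells, 5.06 ± 0.29 (SD, n = 3). The CD34+ groups were wider, with 5.51, 3.38 and 4.86 on the low-fat diet, 4.58 ± 1.09 (SD, n = 3), and 5.05, 5.84 and 4.30 on the high-fat diet, 5.07 ± 0.77 (SD, n = 3). All neighbouring groups in the order of Lamc1 means overlapped. The low-fat CD34+ value of 3.38 in replicate 2 rested on 5 counts.

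Nid1, which links the laminin and collagen networks, also overlapped between all neighbouring groups. It was 4.45, 4.07 and 5.31 in low-fat CD34- cells, 4.61 ± 0.64 (SD, n = 3), and 4.68, 4.64 and 5.27 in low-fat CD34+ cells, 4.86 ± 0.35 (SD, n = 3). It was 5.11, 4.95 and 4.93 in high-fat CD34- cells, 5.0 ± 0.10 (SD, n = 3), the tightest group of any member. In high-fat CD34+ cells it was 4.65, 6.85 and 5.0, 5.5 ± 1.18 (SD, n = 3), where replicate 2 stood far above the other two.

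The samples were checked against the markers of the labelled and of other cell types before the groups were compared. Itgam, which encodes CD11b, was not analysed here. Ptprc, which encodes CD45, had linear values from 1727 to 4160. Cd34 itself was 7 to 21 in low-fat CD34- cells and 31 to 57 in low-fat CD34+ cells, but 35 to 42 in high-fat CD34- and 34 to 87 in high-fat CD34+ cells, so the transcript did not separate the high-fat groups. T and NK cell markers, 13 of 16 on the panel, summed to linear values of 3621 to 17301 and 3673 to 7084 in the low-fat and high-fat CD34- groups, and to 1452 to 2731 and 447 to 1444 in the CD34+ groups. High-fat CD34+ replicate 2 and the shallow low-fat CD34- replicate 3 stood apart, and values without them are given where leaving them out moved a result.

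Between diets in CD34- cells, Col4a2 rose 7.96-fold on the high-fat diet. The log2 difference was 2.99 ± 0.40 (SE, 3 samples per group; 95% interval 2.14 to 3.85), with an adjusted p of 0.00209 by limma's moderated test and Benjamini-Hochberg adjustment over the 594 genes. All 3 high-fat samples lay above all 3 low-fat samples. It was the member called higher, 1 of 5, against 5.05% of all genes tested. In 4 of 5 members the high-fat samples did not overlap the low-fat ones, against 28.3% of all genes. Of these 4, Hspg2 passed the filter only through its high-fat samples. No low-fat CD34- sample of Col4a1, Col4a2 or Hspg2 reached the filter value, so the count of 4 is description only. The calls over all genes, 30 here, ranged from 4 to 43 when 1 sample was left out. No other member passed the test in limma. Hspg2 differed by 1.13 ± 0.53 (SE; adjusted p = 0.227), Col4a1 by 0.75 ± 0.41 (SE; adjusted p = 0.313) and Lamc1 by 0.65 ± 0.54 (SE; adjusted p = 0.538), each with separate groups. Nid1 differed by 0.39 ± 0.53 (SE; adjusted p = 0.749), with overlap.

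The median difference of the 5 members was 0.75, against 0.35 over all genes tested. Because the median gene was higher on the high-fat diet in CD34- cells, values centred on each sample's median were also fitted, which shifted the median of all genes by -0.32. The difference of Col4a2 was then 2.68 (adjusted p = 0.00392), that of Hspg2 0.81 and that of Col4a1 0.43. With a pseudocount of 10 on the linear scale the difference of Col4a2 was 2.0, the lowest of the settings run, and with quantile normalization it was 2.18. Its call held in every alternative setting run, including those that left out 1 sample, where the difference ranged from 2.77 to 3.23 and was 2.95 without low-fat CD34- replicate 3. In bulk samples such as these, fewer cells of a type and less RNA per cell cannot be told apart.

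Sums of several other cell type markers were separate between diets in the CD34- cells, while those of pericytes and smooth muscle overlapped. The 6 endothelial markers on the panel of 15 listed summed to 467 to 616 on the high-fat and 178 to 285 on the low-fat diet, with Kdr, Tek and Nos3 at 3 counts or fewer in at least 1 sample. The 7 fat cell markers of 9 listed summed to 964 to 1507 and 195 to 297, with Adipoq, Lep and Retn at 3 counts or fewer in at least 1 sample, and the 4 macrophage and monocyte markers of 11 to 4757 to 7564 and 2343 to 2638. Of the 4 fat cell markers tested, Fabp4 differed by 2.75, Lpl by 2.29, Pparg by 1.93 and Adipoq by 0.99. Plin4, not tested, had log2 values of 3.27, 3.56 and 3.87 on the high-fat and 4.02, 3.86 and 4.66 on the low-fat diet. Lep and Retn, not tested, overlapped between the diets. The 5 endothelial markers tested differed by 0.97 (Pecam1), 1.52 (Cdh5), 1.56 (Flt1), 1.79 (Nos3) and 2.01 (Tek), and limma called only Flt1. Of the macrophage and monocyte markers, Csf1r (1.43), Cd14 (1.71) and Cd163 (1.55) were called and Cd68 (0.79) was not. The 5 fibroblast markers of 12 summed to 189 to 316 and 50 to 97, with Fap and Postn at 3 counts or fewer in at least 1 sample, and the 3 pericyte and smooth muscle markers of 9 to 43 to 74 and 28 to 54. No mammary epithelial marker was on the panel. The part of these cell types in the change of Col4a2 was not tested.

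Between diets in CD34+ cells, Col4a2 rose 3.63-fold. The log2 difference was 1.86 ± 0.40 (SE, 3 samples per group; 95% interval 1.00 to 2.72; limma adjusted p = 0.0345), and all 3 high-fat samples lay above all 3 low-fat samples. Col4a2 was the 1 member called higher, against 1.68% of all genes tested, and the 1 member with separate groups, against 8.42%. The call rested on the full set of samples. Without high-fat CD34+ replicate 2 the difference was 1.55 (adjusted p = 0.0548) and without replicate 3 it was 2.15 (adjusted p = 0.141). The adjusted p also exceeded 0.05 without high-fat CD34- replicate 1 (0.0608), high-fat CD34+ replicate 1 (0.143) and low-fat CD34+ replicates 1 (0.0976) and 2 (0.135), and without the mean-variance trend (0.0539) or with only the groups compared (0.0726).

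The other members were not called in CD34+ cells. Hspg2 differed by 1.12 ± 0.53 (SE; adjusted p = 0.3), Col4a1 by 0.97 ± 0.41 (SE; adjusted p = 0.231), Nid1 by 0.63 ± 0.53 (SE; adjusted p = 0.586) and Lamc1 by 0.48 ± 0.54 (SE; adjusted p = 0.676). The median over the 5 members was 0.97, against -0.01 over all genes. Without high-fat CD34+ replicate 2 that median was 0.6, with Hspg2 at 0.61, Col4a1 at 0.6, Lamc1 at 0.09 and Nid1 at -0.04. In these cells fat cell markers summed to 1142 to 2180 on the high-fat and 337 to 866 on the low-fat diet, macrophage and monocyte markers to 6868 to 11352 and 2882 to 5377, and endothelial markers to 233 to 474 and 173 to 258. Of the 4 fat cell markers tested, Fabp4 and Lpl differed by 1.89 each, Pparg by 1.65 and Adipoq by -1.1. Plin4, not tested, had log2 values of 4.01, 3.22 and 3.88 on the high-fat and 4.62, 4.06 and 3.9 on the low-fat diet. Lep and Retn, not tested, overlapped between the diets here too. Fibroblast markers summed to 639 to 5621 and 304 to 737, and pericyte and smooth muscle markers to 48 to 108 and 56 to 100. Their part in the result was not tested. The diet comparisons share no sample with each other, but each shares samples with the population comparisons that follow.

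**Figure D2:**
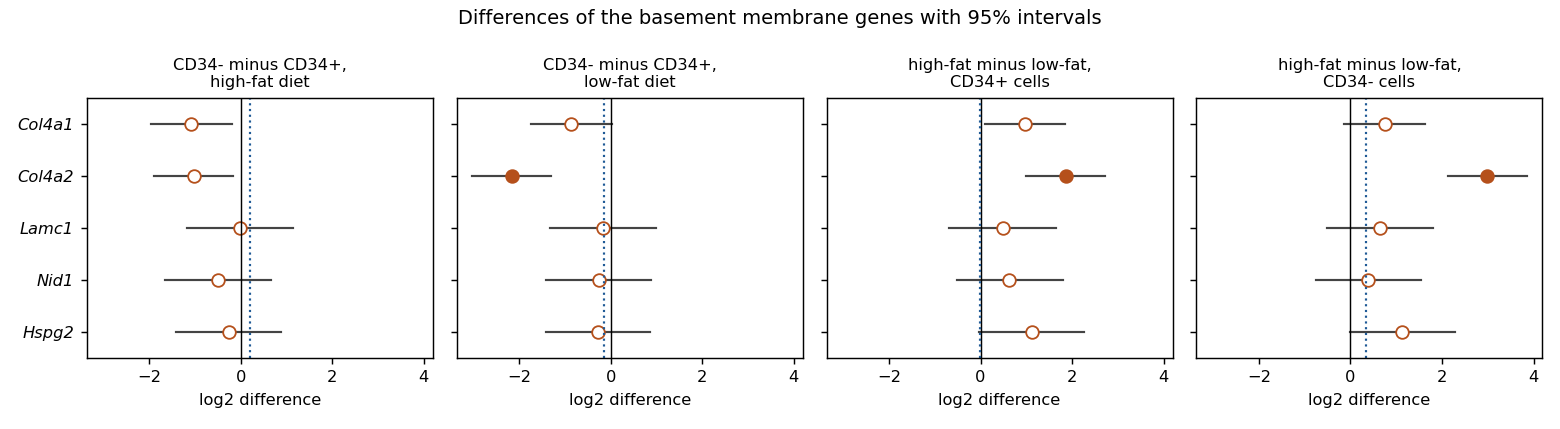
Log2 difference (horizontal axis) of each basement membrane gene (vertical axis) in 4 comparisons, with limma's 95% interval as a line; filled circles have an adjusted p under 0.05 and the dotted line is the median of all 594 genes tested. Col4a2 is filled in 3 panels and reaches 2.99 between diets in CD34- cells.

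Between the populations on the low-fat diet, Col4a2 was 4.48-fold lower in CD34- than in CD34+ cells. The log2 difference, CD34- minus CD34+, was -2.16 ± 0.40 (SE, 3 samples per group; 95% interval -3.02 to -1.31; limma adjusted p = 0.00461). Each of the 3 same-numbered pairs showed it, with differences of -1.77, -2.42 and -2.29, and the groups did not overlap. Col4a2 was the 1 member called lower, against 7.07% of all genes tested. Col4a1 had lower values in all 3 pairs, by -1.31, -0.78 and -0.48, with separate groups, but its difference of -0.86 ± 0.41 (SE; adjusted p = 0.232) did not pass. The 2 members with groups that did not overlap compare with 18.9% of all genes. Hspg2 (-0.27 ± 0.53 SE, adjusted p = 0.871), Nid1 (-0.26 ± 0.53 SE, adjusted p = 0.871) and Lamc1 (-0.17 ± 0.54 SE, adjusted p = 0.914) had intervals that spanned 0 by limma.

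The call of Col4a2 held with the mouse as a random block (adjusted p = 0.00033, where 15.8% of all genes were called lower) and as a fixed block (adjusted p = 0.00105, 17.2%). The difference was -2.12 without low-fat CD34- replicate 3 (adjusted p = 0.0139). The call was lost in voom on the recovered counts, where the difference was -1.82 (adjusted p = 0.0716). It was kept with a pseudocount of 10, where the difference shrank to -1.32 (adjusted p = 0.0184). The median over the 5 members was -0.27, against -0.14 over all genes tested, and it ranged from -0.78 to -0.1 when 1 sample was left out. Fibroblast markers summed to 50 to 97 in CD34- cells and 304 to 737 in CD34+ cells, pericyte and smooth muscle markers to 28 to 54 and 56 to 100, and fat cell markers to 195 to 297 and 337 to 866. Endothelial markers overlapped, at 178 to 285 and 173 to 258. Macrophage and monocyte markers, which the labels assign to the CD34- cells, summed to 2343 to 2638 there and to 2882 to 5377 in CD34+ cells. B cell markers, 3 of 7 on the panel, summed to 498 to 890 in CD34- and 205 to 289 in CD34+ cells, and neutrophil markers, 3 of 6, to 119 to 332 and 48 to 82. The part of these cells in the result was not tested.

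On the high-fat diet, both type IV collagen genes had lower values in CD34- than in CD34+ cells without passing the test. Col4a1 differed by -1.08 ± 0.41 (SE, 3 samples per group; limma adjusted p = 0.125), with -0.98, -1.90 and -0.37 in the 3 pairs. Col4a2 differed by -1.03 ± 0.40 (SE; limma adjusted p = 0.129), with -1.25, -1.84 and -0.00. The other differences were -0.5 ± 0.53 for Nid1 (SE; adjusted p = 0.598), -0.26 ± 0.53 for Hspg2 (SE; adjusted p = 0.793) and -0.01 ± 0.54 for Lamc1 (SE; adjusted p = 0.994). Limma thus called 0 of 5 members, against 8.92% of all genes in either direction and 2.02% lower. At an unadjusted p under 0.05 it called 2, Col4a1 (0.0195) and Col4a2 (0.022), against 23.6% of all genes, and voom called 0 after adjustment. The same 2 members had groups that did not overlap, against 8.42% of all genes.

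These 2 values crossed the threshold with some fits and not with others. With the mouse as a random block, the adjusted p was 0.0323 for Col4a1 and 0.0382 for Col4a2, where 7.24% of all genes were called lower. With the mouse as a fixed block it was 0.073 and 0.077, where 8.59% of all genes were called lower. Centring on the sample median gave -1.36 and -1.31 (adjusted p = 0.0389 and 0.0386), with the median of all genes shifted by -0.28. Without high-fat CD34+ replicate 2 the differences were -0.71 and -0.73, and those of Nid1, Hspg2 and Lamc1 turned to 0.18, 0.25 and 0.38. The median over the 5 members was -0.5, against 0.21 over all genes, and 0.18 without that sample. Fibroblast markers summed to 189 to 316 in CD34- and 639 to 5621 in CD34+ cells, endothelial markers to 467 to 616 and 233 to 474, and fat cell markers to 964 to 1507 and 1142 to 2180. Of the 5 endothelial markers tested, Pecam1 differed by 1.12, Flt1 by 0.72, Cdh5 and Tek by 0.26 each and Nos3 by 0.25. None of these was called, and only Pecam1 had separate groups. Macrophage and monocyte markers summed to 4757 to 7564 and 6868 to 11352, B cell markers to 171 to 976 and 29 to 150, and neutrophil markers to 252 to 333 and 59 to 149. Their part in these values was not tested.

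Whether the population difference itself changed with diet was tested as an interaction. For Col4a2 the population difference was smaller on the high-fat diet by 1.13 ± 0.56 (SE; 95% interval -0.08 to 2.34), which did not pass (limma adjusted p = 0.582). The other 4 members had adjusted p-values of at least 0.947. Limma called 0 of the 594 genes after adjustment, or 0.0%, and 52 genes, 8.75%, at an unadjusted p under 0.05, and voom called 0 after adjustment.

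High-fat CD34+ replicate 2 held the highest value of all 12 samples for all 5 members, while it was the highest for 28 of the 594 genes, 4.7%. Its excess over the mean of the 2 other samples of its group was 2.03 for Nid1, 1.53 for Hspg2, 1.17 for Lamc1, 1.12 for Col4a1 and 0.92 for Col4a2. The median excess was 2.5 for the fibrillar and interstitial collagens and 2.04 for the collagen folding and crosslinking genes, against 0.0 over all genes tested. Summed fibroblast markers reached 5621 in this sample, compared with 716 and 639 in the other two, while its endothelial markers, at 279, lay between 233 and 474. Its pericyte and smooth muscle markers summed to 108, the highest of the 12 samples, against 48 and 59, with Pdgfrb at 79 counts against 10 and 14. Cd34 had a linear value of 87 there, against 39 and 34. In the deviations from the group means, high-fat CD34+ replicate 2 was above for all 5 members and replicate 3 was below for all 5. Their part in the wide spread of that group was not tested.

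**Figure D3:**
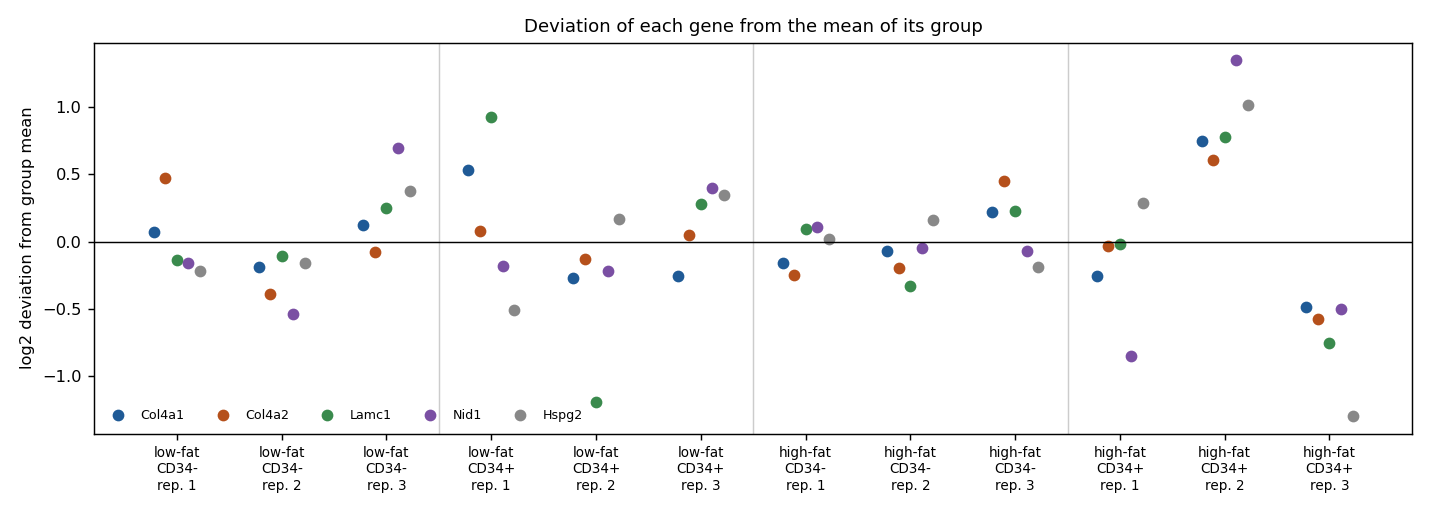
Log2 deviation of each basement membrane gene from the mean of its own group (vertical axis) in the 12 samples (horizontal axis), with 1 colour per gene and vertical lines between groups. All 5 points lie above 0 in high-fat CD34+ replicate 2 and below 0 in replicate 3, while in high-fat CD34- samples the points stay close to 0.

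Within groups the type IV collagen genes had the smallest distance of the 10 pairs of members. The root mean square distance of the deviations of Col4a1 and Col4a2 from their group means was 0.24 over 12 samples, and the other 9 pairs of members lay between 0.37 and 0.64. Across groups the order changed. When the profiles were centred on their means over the 12 samples only, the distance of the pair was 0.94, larger than the 0.56 between Col4a1 and Nid1. The median over all pairs of genes tested, measured in this second way, was 0.76. No such median was taken for the distance within groups, which is also small where both genes vary little. These distances are descriptions, since samples of a group share diet and sort.

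The difference between the 2 collagen genes, log2 Col4a2 minus log2 Col4a1, therefore followed the groups, and it was chosen after the values were seen. It was -0.72, -1.32 and -1.32 in low-fat CD34- cells (-1.12 ± 0.35, SD, n = 3) and -0.26, 0.32 and 0.49 in low-fat CD34+ cells (0.19 ± 0.39, SD, n = 3). The low-fat CD34- values rest on 17, 8 and 2 counts of Col4a2 and 28, 20 and 5 counts of Col4a1. None of these samples reached the filter value of 20 for either gene, so their differences are imprecise. It was 1.03, 1.00 and 1.35 in high-fat CD34- cells (1.13 ± 0.20, SD, n = 3) and 1.30, 0.94 and 0.98 in high-fat CD34+ cells (1.08 ± 0.20, SD, n = 3). The high-fat groups overlapped each other and lay above both low-fat groups, which were separate. The diet difference of this measure was 2.25 in CD34- cells and 0.89 in CD34+ cells, and for each the two-sided exact permutation p was 0.1, the smallest that 3 against 3 samples allow (0.1 after Benjamini-Hochberg adjustment over 2 comparisons). Because the probes differ in efficiency, only its change between groups can be read, not which chain was more abundant.

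**Figure D4:**
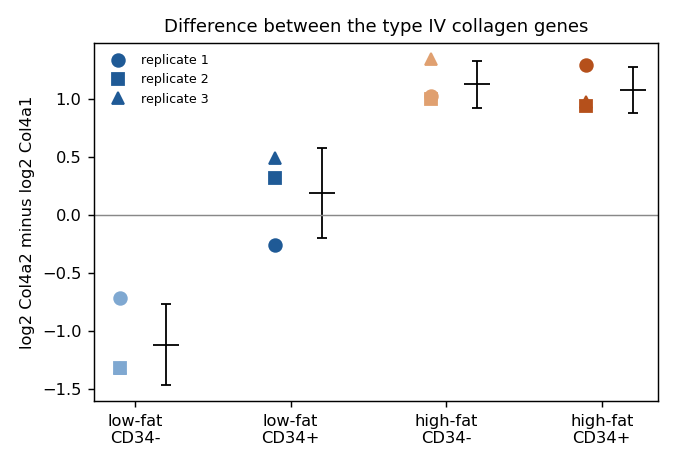
Log2 Col4a2 minus log2 Col4a1 (vertical axis) in each sample by group (horizontal axis), with the group mean and SD (n = 3) as bars and the replicates as circles, squares and triangles. The 6 high-fat samples lie between 0.94 and 1.35 and the low-fat CD34- samples, with 2 to 17 counts of Col4a2, lie below 0.

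The genes with the profile nearest to each member, by root mean square distance over the 12 samples, came from several functional classes. For Col4a2 they were Col5a1, a fibrillar collagen chain, at 0.59, Serping1, the C1 inhibitor, at 0.69, Serpinh1, the collagen chaperone HSP47, at 0.71, and Col6a3 and Hmox1 at 0.73 each, against a median of 1.51 over all genes. For Col4a1 they were App at 0.41, Abca1, a cholesterol exporter, at 0.44, Sdc3, a syndecan, at 0.49, and Col6a3 and Ctsb at 0.50 each (median 0.84). Col6a3, a type VI collagen chain, was near both. The nearest to Lamc1 were Peli2 and Cpt1a at 0.43, Tgfbr1 and Sufu at 0.46 and Csnk1e at 0.47 (median 0.74). To Nid1 the nearest were Acaa2 at 0.53, Npc1 at 0.54, Adcy7 and P4hb at 0.55 and Notch1 at 0.56 (median 0.78), and to Hspg2 Acvrl1 and Furin at 0.58, Amotl2 at 0.60, Map1lc3a at 0.61 and Ckap4 at 0.62 (median 0.87).

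Few other basement membrane components were on the panel. Of 30 listed genes only Lama3, the laminin alpha3 chain, and Nid2, encoding nidogen 2, were present. Lama3 was not tested, with at most 26 counts in a sample. Nid2 passed no test, and its difference between diets in CD34- cells was 1.08 ± 0.46 (SE; limma adjusted p = 0.188). Of the laminin and collagen receptors, 4 of 15 listed were on the panel and 3 were tested. On the high-fat diet Itgb3, the integrin beta3 subunit, was higher in the CD34- population by 2.03 ± 0.59 on the log2 scale (SE; limma adjusted p = 0.0485), and no receptor was called in the other 3 comparisons.

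The enzymes that cut basement membranes and their inhibitors gave 10 tested genes, of 11 on the panel and 18 listed. On the high-fat diet 1 was called lower in CD34- cells, Timp2, a metalloproteinase inhibitor, by -1.30 ± 0.36 (SE; limma adjusted p = 0.0413). On the low-fat diet Mmp14, a membrane-bound metalloproteinase, was lower by -1.51 ± 0.40 (SE; limma adjusted p = 0.0294). Timp1, a further metalloproteinase inhibitor, was the 1 gene of the list called higher on the high-fat diet. It differed by 3.24 ± 0.66 in CD34+ cells (SE; limma adjusted p = 0.0345) and 3.0 ± 0.66 in CD34- cells (SE; adjusted p = 0.0196). Its counts in low-fat CD34- cells were 18, 20 and 1. Over all genes tested, 2.02% and 7.07% were called lower between populations on the high-fat and low-fat diets. Between diets 1.68% and 5.05% were called higher in CD34+ and CD34- cells. In each diet comparison 8 of the 10 genes had a difference above 0. The list's median difference was -1.17 and -1.03 between populations on the high-fat and low-fat diets, against 0.21 and -0.14 over all genes tested. Between diets it was 0.61 and 0.68 in CD34+ and CD34- cells, against -0.01 and 0.35 over all genes.

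The fibrillar and interstitial collagens, which form the fibres outside basement membranes, gave 5 tested genes of 7 on the panel and 11 listed. On the high-fat diet 2 of 5 were called lower in CD34- cells, Col1a2 by -2.92 ± 0.80 (SE; limma adjusted p = 0.0413) and Col3a1 by -2.59 ± 0.58 (SE; adjusted p = 0.0214). On the low-fat diet 3 of 5 were called lower, Col3a1 by -3.75 ± 0.58 (SE; limma adjusted p = 0.00156), Col1a2 by -3.09 ± 0.80 (SE; adjusted p = 0.0266) and Col5a1 by -2.37 ± 0.57 (SE; adjusted p = 0.0199). Col5a1 rested on 8, 4 and 1 counts in low-fat CD34- cells. Col3a1 was the 1 gene of the list called between diets, higher on the high-fat diet in CD34- cells by 2.76 ± 0.58 (SE; limma adjusted p = 0.0172), against 5.05% of all genes called higher there. The high-fat population differences of Col1a2 and Col3a1 were both -1.76 without high-fat CD34+ replicate 2, and Col1a2 was no longer called (adjusted p = 0.0618). The list's medians were -2.28, -2.37, 1.46 and 1.63 in the order used for the previous list, against 0.21, -0.14, -0.01 and 0.35 over all genes tested. Without that sample the first and the third of the list's medians were -1.12 and 0.45. Col1a2 and Col3a1 are also fibroblast markers here, so that list and this one share genes.

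The collagen folding and crosslinking genes, 5 tested of 6 on the panel and 16 listed, had no call in any of the 4 comparisons by limma. Their medians were -1.16, -0.32, 1.36 and 0.55, to be set against the medians over all genes given for the fibrillar collagens. Without high-fat CD34+ replicate 2 the first and the third were -0.23 and 0.55. Of the TGF-beta ligands, receptors and Smads 7 were tested. Between populations on the high-fat diet, Smad3, which carries the receptor signal to the nucleus, had the higher level in CD34- cells, by 1.27 ± 0.37 (SE; limma adjusted p = 0.0479), and no other was called in the 4 comparisons. Of the 12 fits that each left out 1 sample, Itgb3 was called in 2, Smad3 in 3, Timp2 in 5 and Mmp14 in 8. Between diets Timp1 was called in 7 for CD34+ cells and in 8 for CD34- cells. Between populations on the low-fat diet Col3a1 was called in all 12, Col5a1 in 10 and Col1a2 in 8, on the high-fat diet Col3a1 in 10 and Col1a2 in 5, and between diets in CD34- cells Col3a1 in 8.

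The authors' deposited tables of selected genes hold few of the members. The authors' deposited table for the populations on the high-fat diet lists 135 genes, with Col4a1 among them. Col4a2 is 1 of 31 genes in the authors' deposited table for the populations on the low-fat diet and 1 of 117 genes in the authors' deposited table for diets in CD34- cells. The authors' deposited table for diets in CD34+ cells lists 7 genes and no member. The rule by which the authors chose these genes was not used here.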

How the data were processed

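RNA of each sorted sample was amplified with the NanoString low-input kit and counted on the nCounter mouse Fibrosis V2 panel, per the labels' protocols. The deposited values are the authors' normalized log2 values of 760 genes in 12 samples, with no further steps given in the sources used here. The authors' deposited gene tables hold the same log2 values centred per gene. From the values, 1 count was taken as each sample's lowest value. Between 98.0% and 99.6% of values per sample were then whole within 0.1, which gave the recovered counts used for depth and for voom. No value lies below 1 count, so a count of 0 cannot be told from 1.

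The log2 values were fitted with limma 3.58.1 (lmFit, then eBayes with a mean-variance trend) in R 4.3.3 as 4 group means, with no pseudocount and no further normalization. Genes whose linear value reached 20 in 3 or more samples were tested (594 tested, 166 left out), and p-values were adjusted by Benjamini-Hochberg over the 594 with a threshold of 0.05. The script was tested on simulated data. Python 3.11.15, pandas 2.3.3 and scipy 1.17.1 were used for summaries and exact permutation tests. No 2 replicates agreed within sampling noise (chi-square per degree of freedom of at least 12.1).

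Same-numbered samples of a diet deviated together from their group means (correlation 0.306 to 0.434 in all 6 pairs), so the number was taken to mark the mouse. Blocks on the mouse (statmod 1.5.0, consensus correlation 0.448) and the other alternatives are given in the closing section. The members and gene lists were chosen with earlier results of these data known. The named genes are the members, up to 3 genes per list and comparison that passed with the largest differences, the 5 genes nearest to each member, and Cd34 and Ptprc. In addition, 1 gene of the list of basement membrane proteases and inhibitors is not reported here and was left out of that list's counts and medians.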

Additional observations from a re-analysis of the deposited data

How the results depend on the processing

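The call of Col4a2 between diets in CD34- cells held in all alternatives. The members called between populations on the high-fat diet went from 0 to 2 (Col4a1 and Col4a2) with median centring, quantile normalization, the mouse as a random block, and that block with centring; with the mouse as a fixed block they stayed at 0. Those on the low-fat diet went from 1 to 0 in voom, and those between diets in CD34+ cells from 1 to 0 without the trend and with only the groups compared, and to between 0 and 1 when 1 sample was left out. The block with 1 mouse per number changed no other member's call. Small differences changed sign, the cause being not tested. Between populations on the high-fat diet, Lamc1 was 0.20 in voom, and with high-fat CD34+ replicate 2 and low-fat CD34- replicate 3 both left out Lamc1, Nid1 and Hspg2 were 0.38, 0.18 and 0.25. With quantile normalization, Lamc1 and Hspg2 were 0.04 and 0.21 between populations on the low-fat diet and Nid1 was -0.10 between diets in CD34- cells. With both samples left out, Nid1 was -0.04 between diets in CD34+ cells. The interaction became 0.21 for Col4a1 and 0.78 for Nid1 with both samples left out. It was -0.16 for Lamc1 and -0.32 for Hspg2 with centring, with or without the replicate block, -0.37 and -0.72 with quantile normalization, and -0.09 for Hspg2 with a pseudocount of 10.

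When 1 sample was left out, differences between populations on the high-fat diet ranged from -0.39 to 0.38 for Lamc1, -0.92 to 0.18 for Nid1 and -0.91 to 0.25 for Hspg2. On the low-fat diet they ranged from -0.78 to 0.29 for Lamc1 and -0.61 to 0.01 for Nid1, and between diets in CD34+ cells from -0.12 to 0.95 and -0.04 to 1.06, with 0.6 to 1.23 for Col4a1 and 0.61 to 1.77 for Hspg2. The interaction ranged from -0.49 to 0.15 for Col4a1, -0.30 to 0.77 for Lamc1, -0.67 to 0.43 for Nid1 and -0.64 to 0.52 for Hspg2.

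Over all genes, the counts called between populations on the high-fat and low-fat diets and between diets in CD34+ and CD34- cells were 53, 58, 14 and 30. They were 142, 131, 19 and 32 with the random replicate block, 149 and 149 for the populations with the fixed block, and 73, 23, 22 and 11 in voom. Without the trend they were 35, 57, 0 and 27, with quantile normalization 62, 57, 7 and 13, with centring 78, 58, 13 and 17, with only the groups compared 55, 47, 0 and 44, and with both samples left out 90, 59, 53 and 45. When 1 sample was left out, the counts ranged from 0 (without high-fat CD34- replicate 1) to 78, from 26 (without low-fat CD34+ replicate 1) to 69, from 0 to 29 and from 4 (without low-fat CD34- replicate 2) to 43. The count on the high-fat diet was also low without high-fat CD34- replicate 2 (1) and high-fat CD34+ replicate 3 (5), and that in CD34- cells without high-fat CD34- replicates 1 (6) and 3 (5) and low-fat CD34- replicate 1 (12). That in CD34+ cells was 0 without high-fat CD34- replicate 1, high-fat CD34+ replicates 1 and 3 and low-fat CD34+ replicates 1 and 2. The interaction gave 0 calls, or 7 and 9 with the random and fixed blocks and 1 with both samples left out. Higher calls were 77.4%, 27.6% and 71.4% in the first 3 comparisons, and 55.1%, 41.4% and 92.3% with centring. With quantile normalization they were 62.9% and 45.6% in the first 2, and in voom 47.8% and 45.5% in the second and the third. At a filter of 50 Col4a2 was the only member tested, and the fixed block gives no diet comparison.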
